A study of Mus musculus with 4 samples.

Results

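Stand-alone lincRNA promoters were examined in a map of acetylated histone H3 lysine 27 (H3K27ac) from mouse hippocampus. Long intergenic non-coding RNA (lincRNA) genes were taken from GENCODE M21, and a gene was a member when each of its basic transcription start sites (TSSs) lay over 5 kb from any protein-coding TSS. This rule kept 5137 of 5854 lincRNA genes, with 5828 distinct TSSs, and 4639 members had 1 TSS. A member was called marked when a peak of the list replicated between pools lay within 1 kb of a TSS, and 960 of the 88930 peaks in that list (1.08%) were such regions. Membership used annotation and distance alone, and no signal, width or pool support. Some values are still bounded by the rule. Coding neighbours lie over 5 kb away, so few regions can also lie at a coding TSS. The regions come from a list already replicated between the pools, and a wider peak meets the 1 kb window more easily.

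The tissue was hippocampal layer tissue of adult male B6CASTF1/J mice aged 2 months, which are first-generation hybrids of the C57BL/6 and CAST strains. All 4 samples belonged to 1 group: pool C (biological replicate 1) and pool D (biological replicate 2), each joined from 7 biosamples and measured as 2 technical replicates. No treated or control group exists in this design, so the comparisons are between genes and between pools. The pool is the unit of replication, and each pool mixes the cell types of the tissue, so a peak may come from few or many of its cells.

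H3K27ac is placed on nucleosomes at active promoters and active enhancers by acetyltransferases such as CBP and p300, and it is depleted from silent genes. LincRNAs are transcribed by RNA polymerase II and often spliced, and many are made in fewer cell types and at lower levels than messenger RNAs. Because these promoters stand apart from coding promoters, the mark at them is less likely to belong to a shared bidirectional promoter, but a peak at a TSS does not measure the RNA itself, and promoter and enhancer acetylation cannot be told apart from this mark alone.

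Promoter sequences differed widely among the members. The sequences below run from 250 bases before to 50 bases after the TSS on build GRCm38, 5′ to 3′ on the gene's strand, with each CG dinucleotide in capitals. They are the promoters of the 2 strongest marked members with CpG-rich promoters and the 2 strongest with CpG-poor promoters, because CpG content was among the properties that separated marked from unmarked members most. CpG-rich means a ratio of observed to expected CG of 0.6 or more in the 500 bp centred on the TSS.
Malat1 (marked, CpG-rich, chr19:5802623-5802922, minus strand): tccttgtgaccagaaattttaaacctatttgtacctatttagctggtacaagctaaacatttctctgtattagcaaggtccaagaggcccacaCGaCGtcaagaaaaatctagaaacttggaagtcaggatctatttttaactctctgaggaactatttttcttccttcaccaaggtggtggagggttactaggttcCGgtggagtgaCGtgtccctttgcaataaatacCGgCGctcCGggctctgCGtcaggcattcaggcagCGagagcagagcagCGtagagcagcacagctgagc
C030034I22Rik (marked, CpG-rich, chr17:69417152-69417451, plus strand): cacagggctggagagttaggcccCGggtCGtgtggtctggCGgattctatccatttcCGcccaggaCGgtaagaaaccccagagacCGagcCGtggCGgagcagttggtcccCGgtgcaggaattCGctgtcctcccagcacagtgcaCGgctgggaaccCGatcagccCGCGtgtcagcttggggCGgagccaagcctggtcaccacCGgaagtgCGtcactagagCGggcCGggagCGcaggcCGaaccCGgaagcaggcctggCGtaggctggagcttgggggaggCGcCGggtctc
1700031P21Rik (marked, CpG-poor, chr12:52602269-52602568, minus strand): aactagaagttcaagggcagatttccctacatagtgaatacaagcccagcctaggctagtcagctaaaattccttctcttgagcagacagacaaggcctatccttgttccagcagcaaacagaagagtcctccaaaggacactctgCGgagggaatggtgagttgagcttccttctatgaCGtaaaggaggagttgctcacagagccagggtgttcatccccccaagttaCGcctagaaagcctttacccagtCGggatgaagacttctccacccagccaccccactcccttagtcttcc
Gm15835 (marked, CpG-poor, chr16:4777493-4777792, plus strand): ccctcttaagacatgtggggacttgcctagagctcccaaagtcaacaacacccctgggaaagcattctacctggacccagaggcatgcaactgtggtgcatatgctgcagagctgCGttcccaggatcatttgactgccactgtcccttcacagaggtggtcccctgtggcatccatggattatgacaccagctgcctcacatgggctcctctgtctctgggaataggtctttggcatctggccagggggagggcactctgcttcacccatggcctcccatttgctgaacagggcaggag
These 300-base stretches hold 10 CG in Malat1, 25 in C030034I22Rik, 4 in 1700031P21Rik and 1 in Gm15835. The start of Gm15835, with almost no CG, lay in a strong region. However, that region also lay at the coding TSS of Cdip1, and its summit was 12432 bp from the lincRNA's TSS. The start of 1700031P21Rik lay outside its region, with the summit at -2407 bp (minus means upstream). The 2 CpG-poor examples thus do not show a strong peak centred on the start itself.

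H3K27ac marked a minority of the stand-alone lincRNA promoters. A replicated peak lay within 1 kb of a TSS in 821 of 5137 members (16%, 95% Wilson interval 15 to 17). The same rule called 33.8% of all 55413 GENCODE genes and 60.5% of the 21938 protein-coding genes. It called 59.3% of the 717 lincRNA genes that lie within 5 kb of a coding TSS, 43.1% of antisense genes and 52.8% of processed transcripts. Counted per TSS, the shares were 17.1% for members and 61.4% for coding genes. Intervals here and below cover the counting of genes only, and genes are not replicates, so no p-value was computed.

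Peak coverage around members was highest at the TSS. A replicated peak covered the 5′-most TSS itself in 10.7% of members, against 3.56% of positions 10 kb upstream and 3.99% of positions 10 kb downstream. For coding genes the corresponding values were 48.8%, 5.49% and 7.17%. Coverage at the start was thus lower over members than over coding genes, while the flanks differed less.

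**Figure D1:**
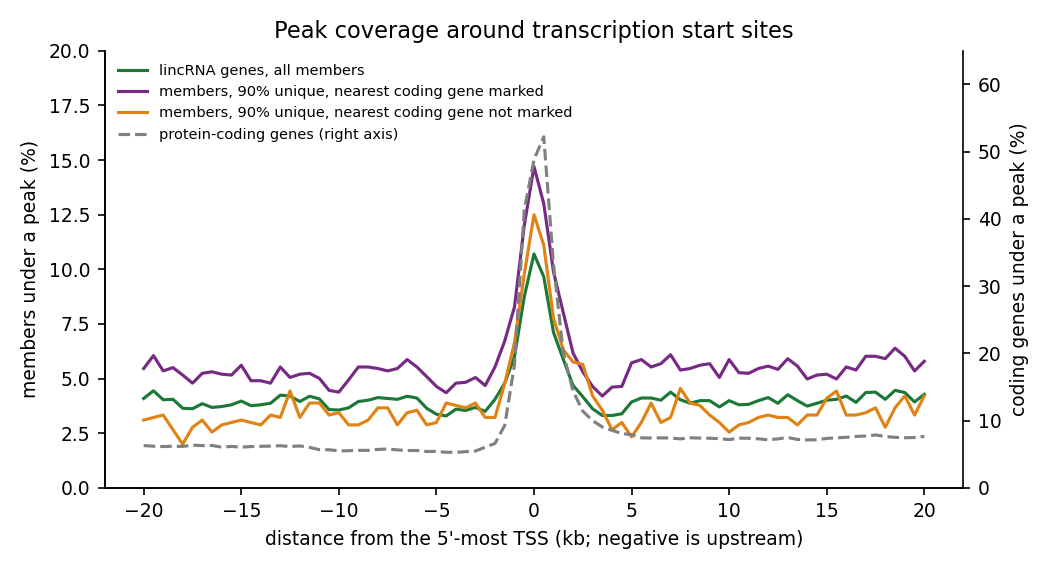
Share of genes whose 5′-most TSS, or a position up to 20 kb from it, lies under a replicated peak (left axis, members; right axis with its own scale, coding genes). All members reach 10.7% at the TSS, and members with unique promoter sequence reach 14.7% where the nearest coding gene is marked and 12.5% where it is not.

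The strongest regions lay at nuclear and regulatory RNAs and at many genes known by clone names only. Malat1, an abundant RNA of nuclear speckles, had the highest signal of any member: 44.2 among the replicated peaks, 47.1 in pool C and 34.7 in pool D, in a region of 14642 bp (chr19:5794601-5809242) that ranked 14 among all 88930 peaks. Neat1, the scaffold RNA of paraspeckles and the neighbour of Malat1 on chromosome 19, had 33.0, 36.9 and 24.8 in the same order, over 12141 bp. Lncpint, a long non-coding RNA induced by p53, had 34.8, 36.2 and 24.4. These signals are the authors' own, on a scale that the sources do not define, so a lower value in the pool D list is not a measured difference between the pools.

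Of the other members among the 15 strongest, 1700031P21Rik had a signal of 40.5, with 42.8 in pool C and 30.9 in pool D. Its TSS lay outside its region, whose summit was at -2407 bp, where a minus sign means upstream. C030034I22Rik had 38.9, 43.2 and 27.9, with the summit 110 bp downstream of its TSS. E230001N04Rik and Gm20109 shared 1 region of 4540 bp with a signal of 37.1 (44.0 in pool C, 24.9 in pool D), whose nearest coding gene was Fkbp5, a co-chaperone of the glucocorticoid receptor. That gene's own promoter peak had a signal of 23.4.

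C130071C03Rik and Gm26803 shared the widest region of any member, 31169 bp with a signal of 33.4 (37.3 in pool C, 24.1 in pool D), 75.2 kb and 76.7 kb from Mef2c, which encodes a neuronal transcription factor. B930059L03Rik had 33.0 (36.6 and 23.8), Gm48623 had 31.2 (30.2 and 23.3), Gm26660 had 29.8 (24.3 and 22.8) and 6720427I07Rik had 28.7 (31.4 and 20.1), the pool C value first. All of these had a peak in each pool list.

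For 2 of the 15, the strongest peak near the TSS was far weaker in a pool list than among the replicated peaks. Gm15835 had 37.0, but the strongest peaks within 1 kb of its TSS were 14.7 in pool C and 9.88 in pool D. Its region of 14665 bp was the only member region that also lay at a coding TSS, that of Cdip1, and its summit was 12432 bp from the lincRNA's own TSS. Gm12974 had 31.2 in the replicated list and 34.7 in pool C, but 3.96 in pool D, and its summit was at -2450 bp from its TSS. These signals therefore describe the region rather than the lincRNA's start.

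The 5 widest regions outside this set were also long stretches of acetylation. AI849053 and Gm3764 shared a region of 19446 bp (signal 23.5) whose nearest coding gene was Mef2d, 36.3 kb and 38.6 kb away. Gm17750 lay in a region of 14739 bp (24.2), Mir9-3hg in 13576 bp (20.3) and Gm37184 in 10979 bp (19.5). For Gm37184 the nearest coding gene, Dpt, had no promoter peak.

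**Figure D2:**
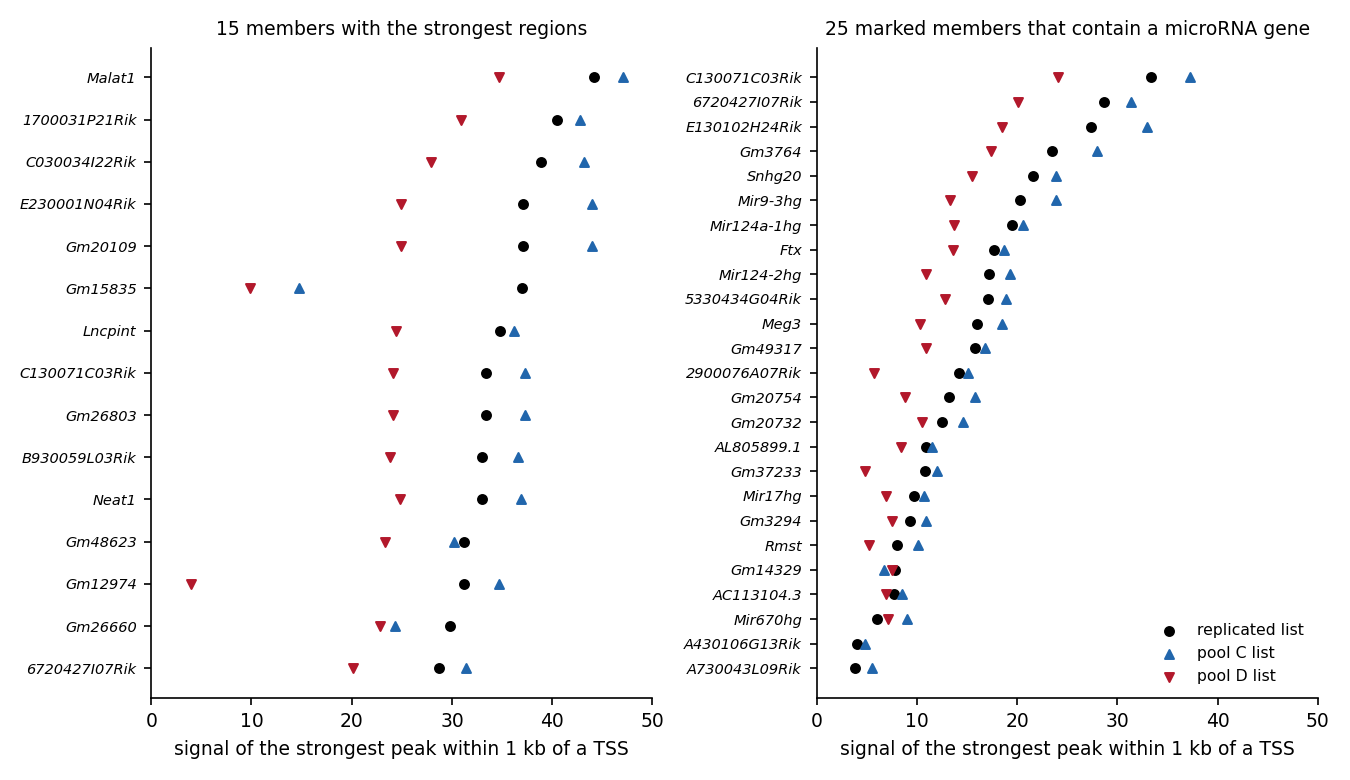
Signal (linear axis) of the strongest peak within 1 kb of a TSS in 3 lists (replicated, pool C, pool D), for the 15 members with the strongest regions and for the 25 marked members that contain a microRNA gene. Gm15835 (37.0 against 14.7 and 9.88) and Gm12974 (3.96 in pool D) stand apart from the others on the left, and 2 hosts on the right, A430106G13Rik and A730043L09Rik, have no pool D peak.

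Regions at stand-alone lincRNAs were weaker and narrower than those at coding promoters, and stronger and wider than peaks away from any TSS. The 960 regions had a median signal of 5.53 (95% order-statistic interval 5.19 to 5.76, range 1.71 to 44.2) and a median width of 1154 bp (1091 to 1227, range 182 to 31169). The 16129 regions at coding TSSs had medians of 11.2 and 1464 bp. The 69259 peaks over 1 kb from every basic TSS had medians of 3.87 and 849 bp.

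The lincRNA genes that lie within 5 kb of a coding TSS resembled coding promoters more closely: their 537 regions had medians of 11.8 and 1660 bp. Signals over 20 were found in 4.38% of member regions and 15.5% of coding regions. Widths over 5 kb were closer, at 3.75% of member regions and 4.87% of coding regions. Of the 960 regions, 894 lay at no other TSS than those of members, 65 also lay at the TSS of a non-coding gene outside the members, and 43 served 2 or more members. Conversely, 159 members had 2 or more regions, and Gm19705 had 5.

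**Figure D3:**
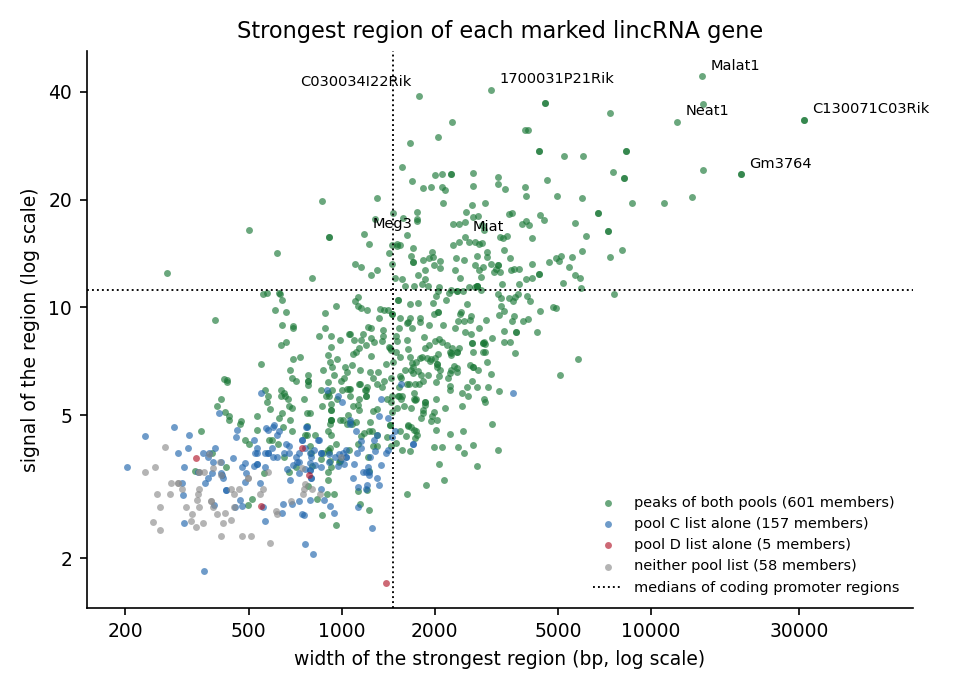
Width (bp, log axis) and signal (log axis) of the strongest region of each of the 821 marked members, coloured by the pool lists that overlap it; dotted lines are the medians of coding promoter regions, 1464 bp and 11.2. Regions with no pool peak or a peak of pool C alone gather below 7 in signal, while regions above it overlap peaks of both pools.

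Support by the separate pools followed the signal. Of the 960 regions, 651 (67.8%, 64.8 to 70.7) overlapped a peak of each pool list, 225 (23.4%) a peak of pool C alone, 8 (0.833%) a peak of pool D alone and 76 (7.92%) none. At coding TSSs the share with both pools was 87.3%, and at peaks away from TSSs it was 45.8%.

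The lower share at members went with their lower signal. Signal and pool peaks come from alignments of the same pools, so a rise of support with signal is partly built in. The part of signal in the lower share was not tested. With the whole list divided into 4 classes of rising signal, member regions overlapped peaks of both pools in 13.9%, 27.8%, 80.1% and 99.7%, and coding regions in 10.7%, 30.1%, 77.3% and 99.8%. Of member regions 38.3% were in the highest class, against 73.2% of coding regions. Regions with both pools had a median signal of 7.35 and width of 1658 bp, those with pool C alone 3.78 and 678 bp, and those with neither 3.01 and 384 bp.

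Among members whose strongest region overlapped a peak of pool C alone, the highest were 2810032G03Rik (6.13), Gm42788 (5.90) and 3222401L13Rik (5.78). Where that region overlapped a peak of pool D alone they were Gm43154 (4.05), D630024D03Rik (3.8) and Gm39464 (3.41), although Gm43154 also had a pool C peak (3.69) elsewhere near a TSS. Where it overlapped neither they were AC117629.1 (4.08), Gm37839 (3.90) and Gm44725 (3.82). All 9 had signals below the median of coding regions.

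Counted by gene, 580 of the 821 marked members (70.6%) had a promoter peak in each pool list, 188 in pool C alone, 3 in pool D alone and 50 in neither. Of the 4316 unmarked members, 91 had a peak in pool C and 0 had 1 in pool D. The pool C list alone marked 16.7% of members and the pool D list 11.3%, while for coding genes these shares were 61.1% and 56.8%. Across the 580 members with both, the ranks of the pool signals had a Spearman's rho of 0.88, given as a description since both are chosen for having peaks. The pool C list is longer (94836 peaks against 63623) and read totals are unknown, so depth and tissue differences between the pools cannot be told apart.

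Members beside a marked coding gene were marked more often. The nearest coding gene had a replicated promoter peak for 3304 members, of which 642 were marked (19.4%, 18.1 to 20.8). Of the 1833 members whose nearest coding gene had none, 179 were marked (9.77%, 8.49 to 11.2). This contrast was smaller where the promoter sequence was unique. Among the 3594 members whose promoter was at least 90% unique, measured as the share of 32-base words in the 500 bp at the TSS that occur at no other place in the genome, the shares were 21.8% (20.3 to 23.4) and 17.6% (15.3 to 20.3).

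Chromosome Y accounted for part of this. It holds 548 members, of which 0 were marked, 499 had under 10% unique words and 546 had an unmarked nearest coding gene. Without them, the share beside unmarked genes was 13.9%, and beside marked genes it was 19.4%. How far multiple mapping of reads lowers the mark at such promoters was not tested.

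Closeness to a coding gene also went with the mark. The marked share was 23.4% at 5 to 10 kb from the nearest coding TSS, 19.5% at 10 to 25 kb, 20.1% at 25 to 50 kb, 16.5% at 50 to 100 kb, 14.4% at 100 to 250 kb and 9.14% beyond 250 kb. The median distance was 55.8 kb for marked and 87.1 kb for unmarked members. Within each distance class, members beside a marked gene had the higher share, from 26.7% against 16.3% at 5 to 10 kb to 12.3% against 3.78% beyond 250 kb. Among members with unique sequence this held in 5 of the 6 classes, with overlapping intervals in every class, and at 100 to 250 kb the shares were 18.6% and 21.1%.

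**Figure D4:**
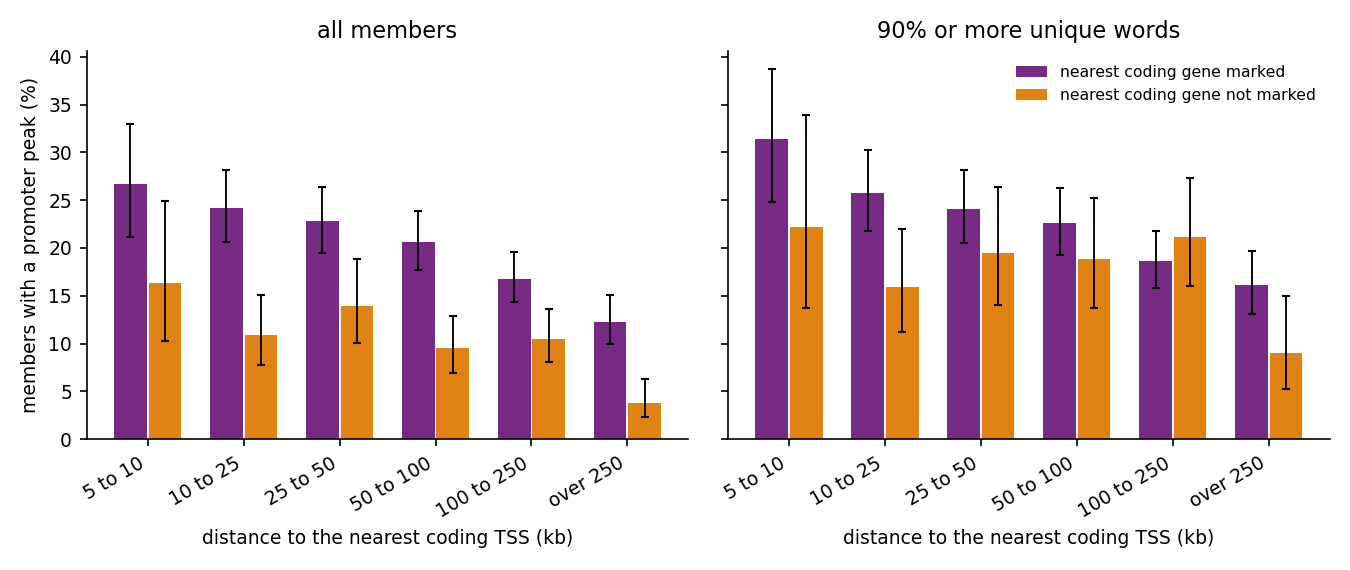
Share of members with a promoter peak (%) by distance to the nearest coding TSS, for members whose nearest coding gene is marked or not, with 95% Wilson intervals as bars; all members on the left, members with 90% or more unique words on the right. The gap between the colours is smaller on the right, where at 100 to 250 kb the shares are 18.6% and 21.1%.

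The strength of the region did not follow the neighbour in the same way. Marked members had a median signal of 6.01 (5.55 to 6.37) beside a marked coding gene and 6.13 (5.67 to 7.71) beside an unmarked one. In the 641 pairs with separate regions, the lincRNA region had the lower signal in 526 (82.1%), with medians of 6.01 and 15.2, and Spearman's rho across pairs was 0.12. The lincRNA had the higher signal in 45.1% of the 82 pairs with a CpG-rich lincRNA promoter and in 13.8% of the 559 others. Neat1 (33.0) against Frmd8 (5.94), C030034I22Rik (38.9) against Akain1 (8.81) and Miat (15.7) against Cryba4 (3.82) were among the pairs with the largest ratios.

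The strongest members beside an unmarked coding gene had CpG-rich as well as CpG-poor promoters. They were 1700096K18Rik (23.7, near Cct8l1), Gm45605 (23.5, near Slc47a1), 2810405F17Rik (21.7, near Cela3a, a pancreatic elastase gene), Gm49427 (21.4, near Xirp1, a striated muscle gene) and Gm37027 (20.2, near Cd46). The first 3 had CpG ratios of 0.93, 0.98 and 0.89, and Gm49427 and Gm37027 had 0.08 and 0.15. The 3 marked members farthest from a coding TSS were C130073E24Rik (signal 4.97, 2073 kb from Tenm3), Gm35552 (5.90, 1426 kb from Hace1) and Gm13470 (11.1, 1325 kb from Zeb2), and each had a peak in both pool lists.

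Over the 4 arrangements of the lincRNA and its nearest coding gene, marked shares ran from 14.2% to 17.4%. Beside an unmarked coding gene they ran from 7.20% where the genes faced each other to 12.6% where they lay head to head. Beside a marked coding gene the same arrangements were near equal, at 19.6% and 19.5%. The class beside an unmarked gene includes 546 members on chromosome Y, of which 0 were marked. The arrangements were not tested without chromosome Y. The TSS lay within the span of a coding gene in 164 members, of which 41 were marked (25%, 19 to 32.1). The nearest coding gene belonged to a transcription factor family, by a list of 78 symbol starts, for 8.16% of marked and 6.56% of unmarked members. Such families make up 2.41% of all coding genes.

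Promoter sequence separated members more clearly than the neighbour did. The marked share rose with the CpG ratio, from 8.76% under 0.2 to 17.5% at 0.2 to 0.4, 30.5% at 0.4 to 0.6, 40.6% at 0.6 to 0.8 and 55.1% over 0.8. CpG-rich members were marked in 112 of 244 cases (45.9%, 39.8 to 52.2) and CpG-poor members in 709 of 4893 (14.5%, 13.5 to 15.5). The shares among coding genes were 91.0% and 26.5%. CpG-rich promoters made up 4.75% of members and 52.7% of coding genes, so most member promoters belonged to the class that was less often marked in both kinds of gene.

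At marked members, CpG-rich promoters had stronger regions, with a median signal of 12.6 (9.82 to 14.3) and width of 1666 bp, against 5.67 (5.30 to 5.93) and 1242 bp for CpG-poor ones. Among all members, the CpG class and the neighbour each went with the share within the classes of the other. CpG-rich members were marked in 51.2% of cases beside a marked gene (43.6 to 58.9) and 35.7% beside an unmarked one (26.3 to 46.4), so these intervals overlapped. CpG-poor members were marked in 17.8% and 8.52%. The class with 8.52% includes 546 members on chromosome Y, of which 0 were marked. The neighbour contrast within CpG classes was not tested without chromosome Y or with unique words alone. The unmarked members with the highest CpG ratios were Mir155hg (1.14), Gm10685 (1.06) and Gm32351 (1.01). Of their 32-base words 100% were unique in Mir155hg and Gm32351 but 0% in Gm10685, where a peak may not be detectable.

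Members without unique sequence were almost never marked. Of 647 members with under 10% unique words 1 was marked, of 316 with 10 to 50% 7 were marked, and of 2805 with 100% 626 were marked (22.3%, 20.8 to 23.9). Among members with at least 90% unique words the share was 20.8% (747 of 3594), still below the 26.5% of CpG-poor coding genes, which were not filtered this way. In these members, CpG-rich promoters were marked in 60.6% and CpG-poor ones in 18.8%.

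**Figure D5:**
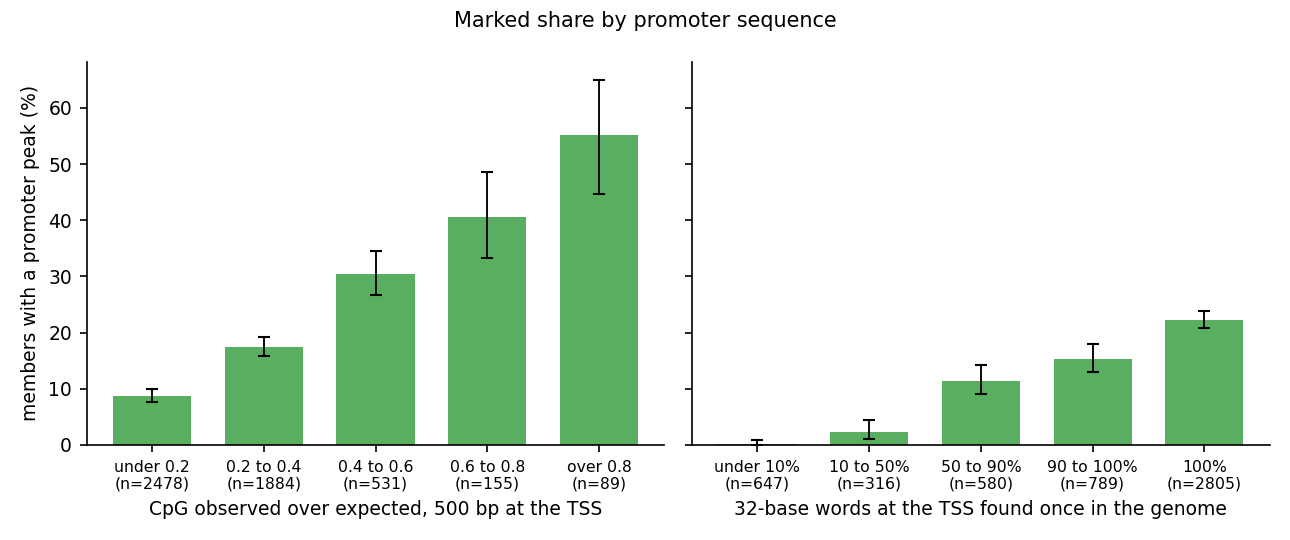
Share of members with a promoter peak (%) by the CpG ratio at the TSS (left) and by the share of 32-base words there that occur at no other place in the genome (right), with 95% Wilson intervals and the number of members under each bar. The share rises from 8.76% to 55.1% on the left and from 0.155% to 22.3% on the right.

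Autosomes carried the mark at 18% of 4500 members, from 11.1% on chromosome 8 to 25.6% on chromosome 17, and the X chromosome at 11 of 89 (12.4%, 7.04 to 20.8). Members with more annotated starts were marked more often, at 14.6% with 1 TSS, 24.6% with 2 and 42.9% with 3 or more, where each further TSS is also a further chance to meet a peak. Exon number made little difference, at 18.8% for 1 exon and 15.1% for 4 or more. Members with a name other than a Gm number or a clone were marked in 27.9% of 140 cases and those with a Gm number in 14.1% of 3736.

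The region sat less precisely on the TSS than at coding genes. The main TSS lay inside the strongest region in 520 of 821 marked members (63.3%) and in 83.1% of marked coding genes. The summit was a median of 419 bp from the TSS for members and 206 bp for coding genes, and downstream of it in 57.7% and 67.4%. The main TSS is the one nearest the summit, and coding genes offer more starts to choose from. They had 41493 distinct TSSs over 21938 genes, against 5828 over 5137 members. The part of this choice in the differences was not tested. Of 8 motifs counted, the GC box GGGCGG, the binding site of SP/KLF factors, occurred on either strand of the 300-base promoter in 18.9% of marked members, 5.63% of unmarked members and 46.8% of coding genes. The ETS motif CCGGAAG occurred in 5.85%, 2.5% and 11.6%, the CRE core TGACGT in 5.97%, 3.75% and 8.74%, and the AP-1 motif TGACTCA in 7.19%, 6.26% and 4.37%. The TATA box TATAAA (13.5%, 16.7% and 12.1%) and the CCAAT box CCAAT (34.7%, 44.5% and 37.8%) were less frequent in marked than in unmarked members. Among unmarked members with at least 90% unique words, the CCAAT share was 36.5% (34.7 to 38.2), near that of marked members (31.5 to 38.0). In the same unmarked members the TATA box was at 17.7% and AP-1 at 7.52%, so the AP-1 order was reversed. The E-box CAGATG (25.3%, 25% and 14.1%) and the NRF1 core TGCGCA (2.80%, 2.83% and 10.2%) were near equal in both. Within CpG classes the E-box shares lay in opposite orders, with overlapping intervals in both classes. It occurred in 28.3% of marked CpG-poor members (25.2 to 31.8) and 23.8% of unmarked ones with unique words (22.2 to 25.4). In CpG-rich members it occurred in 7 of 112 marked (6.25%, 3.06 to 12.3) and 18 of 132 unmarked (13.6%, 8.80 to 20.5). These CpG-rich members were not filtered for unique words. Median GC content of these windows was 50%, 46.3% and 56.7%, and the part of base composition in these differences was not tested. A match is not a bound site.

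Many named long non-coding RNAs of the nervous system were marked. Lists written for this tissue with earlier results known held 126 symbols. Of these, 35 were members and 24 of those were marked, against 16% of all members. A closer comparison is members with a name other than a Gm number or a clone. They were marked in 27.9% of cases, and in 36.8% where at least 90% of words were unique. Of 10 brain RNAs 8 were marked. Besides those above they were Meg3, an imprinted RNA expressed from the maternal allele (16, with 18.5 in pool C and 10.3 in pool D), Miat (15.7, with 16.2 and 13.2), Rmst, which takes part in neural differentiation (7.98, with 10.1 and 5.24), Carmn (12.8) and 1700020I14Rik (17). Gm26917 and Mirg were unmarked. The lists overlap, and Carmn, Malat1, Meg3, Neat1, Mirg and Mir17hg each stand in more than 1.

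All 3 small nucleolar RNA hosts were marked: Snhg20 (21.6), Snhg12 (19.3) and Snhg6 (12.7). Of 8 members in the list of widely expressed RNAs 7 were marked, among them Pvt1, the neighbour of Myc (13.7), and Lockd (5.87). The unmarked one was Platr4, of the same series as the stem cell RNAs Platr3 and Platr10 below. No member's place in this list, marked or unmarked, was checked against expression data. The X inactivation centre gave Ftx (17.7) and Jpx (17.1) with peaks, while Xist, the RNA that coats the inactive X in females, had none in these males. H19, an imprinted RNA of fetal tissues, had none either, so Meg3 was the marked one of 3 imprinted members.

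RNAs known mainly from other tissues were marked in 4 of 9 cases, against 16% of all members. Members with a name other than a Gm number or a clone and with unique words were at 36.8%. A share above that of all members was thus not confined to the brain list, and the lists were not tested against each other. Those marked were Bvht, described in heart (13.5), Carmn (12.8), Dubr (9.09) and Trp53cor1, a p53 target (4.70). Hotair, from the Hoxc cluster, Pldi and the stem cell RNAs Lncenc1, Platr3 and Platr10 were not. Every marked member in these lists had a region overlapped by both pool lists.

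Coding marker genes are read here against all coding genes, of which 60.5% had a promoter peak. Promoter peaks were found at 8 of 8 markers of excitatory neurons, 5 of 5 of astrocytes, 5 of 5 of oligodendrocytes and 4 of 4 of endothelial cells. They were found at 3 of 5 of microglia, 2 of 6 of interneurons and 2 of 4 of choroid plexus, and at 0 of 6 genes of tissues outside the forebrain. The part of each cell type in the lincRNA regions was not tested.

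Members that contain a microRNA gene on their own strand were a strongly marked group, singled out after their values were seen. Of 57 such hosts 25 were marked (43.9%, 31.8 to 56.7), against 15.7% of other members. The share was 33.3% for the 45 CpG-poor hosts and 83.3% for the 12 CpG-rich ones. Among members with at least 90% unique words, 23 of 51 hosts were marked (45.1%, 32.3 to 58.6), against 20.8% of all. Only 35 hosts held a microRNA with a mature sequence in RefSeq, and 18 of those were marked (51.4%, 35.6 to 67.0). Marked hosts had a median signal of 14.2 (9.72 to 17.7) and a width of 2016 bp, against 5.90 and 1272 bp for other marked members. MicroRNAs are cut from such primary transcripts and repress messenger RNAs through their seed, bases 2 to 8.

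The mature sequences below, from RefSeq on GRCm38.p6, are of microRNAs in hosts with and without a peak, 5′ to 3′ with the seed in capitals. They show which seed families the acetylated hosts could supply.
miR-9-5p (hosts C130071C03Rik, Gm3764 and Mir9-3hg, marked): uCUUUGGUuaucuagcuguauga
let-7a-5p (Mirlet7a-1 in host 6720427I07Rik, marked): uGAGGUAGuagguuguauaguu
let-7d-5p (host 6720427I07Rik, marked): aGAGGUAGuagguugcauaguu
let-7f-5p (host 6720427I07Rik, marked): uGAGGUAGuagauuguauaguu
miR-101a-3p (host E130102H24Rik, marked): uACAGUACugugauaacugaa
miR-100-5p (host Gm49317, marked): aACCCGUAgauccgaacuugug
miR-125b-5p (host Gm49317, marked): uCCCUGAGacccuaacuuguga
miR-129-5p (hosts Gm3294 and Mir670hg, marked): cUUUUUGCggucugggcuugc
miR-205-5p (host 4631405K08Rik, unmarked): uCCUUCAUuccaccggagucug
miR-206-3p (host Gm28653, unmarked): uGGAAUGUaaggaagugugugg
miR-155-5p (host Mir155hg, unmarked): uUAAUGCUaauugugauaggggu
The 3 let-7 microRNAs share the seed GAGGUAG, and each of the others shown has a seed of its own. A further let-7a gene, Mirlet7a-2, lies in the marked host Gm49317.

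All 3 loci that encode the neural microRNA miR-9 lie in marked members with wide regions. C130071C03Rik (Mir9-2) had 33.4 over 31169 bp, Gm3764 (Mir9-1) 23.5 over 19446 bp and Mir9-3hg (Mir9-3) 20.3 over 13576 bp, and each had a peak in both pool lists. The 2 member hosts of miR-124, a microRNA of neurons, were marked as well: Mir124a-1hg had 19.5 over 8647 bp (20.6 in pool C, 13.7 in pool D), and Mir124-2hg had 17.2 over 5655 bp (19.3 and 10.9).

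Other marked microRNA hosts covered a range of signals and widths. The let-7 host 6720427I07Rik had 28.7 over 1664 bp and the miR-101a host E130102H24Rik had 27.4 over 4329 bp. Gm49317, which spans Mir100, Mirlet7a-2 and Mir125b-1, had 15.8 over 3419 bp, and Mir17hg, the host of the miR-17 to miR-92 cluster, had 9.72 over 663 bp. The hosts of miR-129, Gm3294 and Mir670hg, had 9.35 over 1663 bp and 6.01 over 2736 bp.

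Unmarked hosts included those of microRNAs known from other tissues: Gm28653 for the muscle microRNAs miR-206 and miR-133b, AC157910.3 for miR-122 of liver, 4631405K08Rik for miR-205 of epithelia, Gm12082 for miR-216a and miR-217 of pancreas, and Mir155hg for miR-155 of immune cells. They also included hosts of microRNAs described in neurons, C78859 (Mir138-2) and Mirg. None of these 7 had a peak in either pool list.

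Members near the thresholds show what the rule left out. Just inside the 5 kb distance lay AW121686 (5002 bp from Tcf20, marked with 7.19), Gm37552 (5027 bp) and Gm44658 (5030 bp), the last 2 unmarked, and just outside lay Gm26669 (4960 bp), Mir142hg (4964 bp) and Gm15729 (4987 bp), none marked. Just inside the 1 kb window lay the regions of 1700008K24Rik (981 bp, signal 3.12), 4833419O12Rik (982 bp, 5.44) and Gm43660 (986 bp, 6.94). Just outside lay peaks near Gm3455 (1003 bp, 3.23), Gm41031 (1012 bp, 6.92) and Gm13848 (1015 bp, 3.24).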

How the data were processed

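H3K27ac ChIP-seq peaks of 4 samples from 2 pools were used. The authors deposited 4 narrowPeak lists on mm10: peaks replicated between the pools, peaks of both pools together, and peaks of each pool, per the labels' descriptive text. The signal of each peak is the authors' deposited value, on a scale of unknown definition. The authors also deposited a −log10 p, a −log10 q and a summit distance per peak. The sources used here name no aligner, peak caller or version. No read totals were used, so depth is unknown, and a missing peak means not detected at this depth. The hybrid's strain differences from the reference were not analysed.

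Regions and TSSs were joined on GENCODE M21 with Python 3.11.15 (numpy 2.4.6, pandas 2.3.3, scipy 1.17.1, numba 0.67.0, matplotlib 3.10.9), and sequence was read from GRCm38 with samtools 1.23.1. No peak of the 350032 ended beyond its chromosome. The main TSS was the basic TSS nearest the summit of the strongest region, or the 5′-most one for an unmarked gene. Overlap with a pool list meant 1 bp or more. The joins and intervals were tested on simulated data.

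Named were the 15 strongest members, the 5 widest others, up to 3 strongest per class of pool support, the 5 strongest beside an unmarked coding gene, the 3 farthest from a coding TSS, the 3 unmarked with most CpG, the 5 strongest CpG-poor, up to 3 on each side of both thresholds, and members of the RNA lists. Any other gene was named after its values were seen. Members and lists were chosen with earlier results of these data known. Alternatives were other peak thresholds, lists, windows, distances, TSS sets and overlaps; those without chromosome Y, with unique words, with the 5′-most TSS and with the TSS inside the region were added after seeing the data. The promoter sequence of an unmarked member is not reported here.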

Additional observations from a re-analysis of the deposited data

How the results depend on the processing

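Members beside a marked coding gene had the higher marked share than those beside an unmarked one in all 14 settings that gave both shares, and CpG-rich members had a higher share than CpG-poor ones in all 14. The marked share (16%) was 11.3% with peaks at or above the median signal, 14.2% and 20.0% with windows of 500 bp and 2.5 kb, 17.2% in the list from both pools together, 17.9% without chromosome Y, 20.8% with 90% or more unique words and 11% when the TSS had to lie inside the region. With 1 pool left out it ranged from 11.3% to 16.7%. The number of regions (960) was 629 with the stronger peaks and 561 with the TSS inside. The median signal (5.53) was 5.76 with a −log10 q of 5 or more, 5.90 and 4.84 with the 2 windows and 7.06 with the TSS inside. The median width (1154 bp) was 1658 bp with the stronger peaks, 1242 and 1012 bp with the 2 windows and 1647 bp with the TSS inside. The share of regions with peaks of both pools (67.8%) was 72.2% with a −log10 q of 5 or more, 91.6% with the stronger peaks, 72.1% and 62.0% with the 2 windows, 56.9% when 50% of the region had to be overlapped and 81.3% with the TSS inside.

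The share beside a marked coding gene (19.4%) was 17.1% and 24.9% with the 2 windows, 21.8% with unique words and 13.1% with the TSS inside, and 14.3% to 20.1% with 1 pool left out. The share beside an unmarked one (9.77%) was 13.9% without chromosome Y, 17.6% with unique words and 7.15% with the TSS inside, and 6.78% to 10.3% with 1 pool left out. The CpG-rich share (45.9%) was 60.6% with unique words and 38.5% with the TSS inside. The CpG-poor share (14.5%) was 12.7% and 18.6% with the 2 windows, 15.7% in the list from both pools together, 16.3% without chromosome Y, 18.8% with unique words and 9.63% with the TSS inside, and 9.85% to 15.1% with 1 pool left out. The other 67 of 109 values stayed within the interval of the main value, or within 1.5 times the main count. Fewer members or peaks enter the stricter settings by construction, and the cause of the other shifts was not tested. No paired analysis was possible because the design holds 1 group of 2 pools.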

Other observations

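Most coding genes nearest to a marked member were nearest to no other marked member, and the 4 named here were picked after their values were seen. The 821 marked members had 658 nearest coding genes, of which 538 were nearest to 1 marked member, 120 to 2 or more and 4 to 5 or more. Ly86, an immune gene with no promoter peak of its own here, was nearest to 12 members, of which 7 were marked (Gm29458, Gm29459, Gm29590, Gm4035, Gm47709, Gm47732 and Gm47734). Haao, an enzyme gene of tryptophan breakdown that also had no promoter peak, was nearest to 6 members, of which 5 were marked, all named AC091309 clones. Cd83 (promoter signal 5.26) was nearest to 11 members with 5 marked, and Ctnnb1, which encodes beta-catenin (9.32), was nearest to 9 with 5 marked.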
